A study of Mus musculus with 4 samples.

Results

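The cytosolic ribosomal protein genes were taken as the protein-coding genes of the count table whose symbol is Rpl or Rps followed by a number, with or without a paralog ending, together with Rplp0, Rplp1, Rplp2 and Rpsa. This rule found 83 genes of the 56748 listed, 51 of the large and 32 of the small ribosomal subunit. It used names alone, but it was set with earlier results of these data known. Rps4l is listed as a pseudogene and was therefore not a member. Transcripts were sequenced from E14, a mouse embryonic stem (ES) cell line grown without feeder cells in medium with serum and LIF, the cytokine that holds these cells in the undifferentiated state. WT1 and WT2 came from wild-type E14 cells. KO1 and KO2 came from 2 E14 knockout lines in which Npac (Glyr1, a reader of the H3K36me3 histone mark) had been disrupted with CRISPR/Cas9 and drug-selected colonies had been picked, with 1 library for each line. The comparison asks how the transcripts of ribosomal proteins changed when Npac was lost. No source states that WT1 and WT2 were separate cultures, so the p-values measure the spread between these libraries, which may be technical.

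The total count lay between 15850805 and 16965120 reads per library, and all 83 members passed the filter on low counts. Glyr1 was measured at 259 and 178 CPM (counts scaled to library size by the TMM method) in WT1 and WT2 and at 47.9 and 51.3 CPM in KO1 and KO2. The summed level of 7 ES cell markers lay between 3558 and 4292 FPKM (fragments per kilobase of gene length, scaled for library depth) in the 4 libraries, with none at 0 and the largest part from Dppa5a (1979 to 2436 FPKM). The log2 fold change was below 0 for 6 of these 7 markers, with a median of -0.53, and Zfp42 fell from 499 and 367 FPKM in WT cells to 71.0 and 67.4 FPKM in KO cells (-2.64, adjusted p = 0.000704). Fibroblast markers summed to between 11.8 and 20.8 FPKM, mostly from Thy1. Among them Col3a1 and Dcn were at 0 in every library, while Col1a1 rose from 0.842 and 1.45 FPKM to 2.78 and 2.82 FPKM (1.29, adjusted p = 0.0308) and Col1a2, at 0.0929 FPKM or less, gave 2.06 (adjusted p = 0.0515). The 4 trophoblast markers summed to 14.1 and 9.87 FPKM in WT1 and WT2 and to 43.5 and 38.5 FPKM in KO1 and KO2, nearly all of it from Tfap2c, while Cdx2 was at 0 in WT1 and KO1. The part of these markers in the results was not tested. In bulk RNA, fewer cells of a type and less RNA per cell cannot be told apart.

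Each cytosolic ribosome is built from a large subunit, which forms peptide bonds, and a small subunit, which reads the mRNA. Ribosomal protein mRNAs are among the most abundant in a growing cell, and their 5′ ends carry a terminal oligopyrimidine (TOP) tract through which their translation is controlled together. Because these mRNAs are abundant, they have often been copied back into the mouse genome by reverse transcription, which leaves intronless processed pseudogenes that can match the parent mRNA almost base for base.

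The matches between parent genes and pseudogenes are shown first, since the values of the members that rose moved when reads on matching pseudogenes were added. In the GENCODE annotation of GRCm38, 1201 pseudogenes were matched to the members by sequence or name, and 683 of them had reads. At least 1 pseudogene matched 80 of the 83 members. Stretches of coding exons are printed below with the aligned stretch of the pseudogene that held the most reads in WT cells, in the sense of the transcript, and capitals mark the bases that differ between the 2 copies. The first pair is exon 4 of Rpl29 (chr9:106431206-106431325, plus strand) and Gm13841 (chr5:115801801-115801920, minus strand).
Rpl29: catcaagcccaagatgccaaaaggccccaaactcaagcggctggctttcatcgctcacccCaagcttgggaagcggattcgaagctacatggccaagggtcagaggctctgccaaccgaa
Gm13841: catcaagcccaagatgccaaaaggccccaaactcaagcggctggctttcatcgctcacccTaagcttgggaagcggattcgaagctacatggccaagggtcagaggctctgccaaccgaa
Then follow exon 3 of Rpl34 (chr3:130729051-130729150, minus strand) and Rpl34-ps1 (chr6:71124675-71124774, plus strand).
Rpl34: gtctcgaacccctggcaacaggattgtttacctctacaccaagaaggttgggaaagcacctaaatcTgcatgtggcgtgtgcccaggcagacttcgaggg
Rpl34-ps1: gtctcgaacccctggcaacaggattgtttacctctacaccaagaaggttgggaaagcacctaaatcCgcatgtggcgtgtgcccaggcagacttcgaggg
After it comes exon 5 of Rps3a1 (chr3:86138483-86138592, minus strand) and Rps3a2 (chr14:88123136-88123245, minus strand).
Rps3a1: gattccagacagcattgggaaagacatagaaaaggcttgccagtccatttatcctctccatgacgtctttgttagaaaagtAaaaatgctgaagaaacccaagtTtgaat
Rps3a2: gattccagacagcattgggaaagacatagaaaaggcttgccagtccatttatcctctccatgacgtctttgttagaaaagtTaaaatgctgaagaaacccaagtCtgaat
The last pair is exon 5 of Rplp0 (chr5:115561361-115561480, plus strand) and Gm8730 (chr8:102865186-102865305, minus strand).
Rplp0: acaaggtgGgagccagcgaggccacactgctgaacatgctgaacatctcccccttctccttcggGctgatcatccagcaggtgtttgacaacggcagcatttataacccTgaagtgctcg
Gm8730: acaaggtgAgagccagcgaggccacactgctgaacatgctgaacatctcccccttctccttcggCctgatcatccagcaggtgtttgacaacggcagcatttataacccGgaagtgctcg

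Over the whole alignment, Rpl30 and Gm12191 differed at 1 of 348 bases and had 252 bases in a row without a mismatch. Rpl34 and Rpl34-ps1 differed at 2 of 354 bases, Rpl29 and Gm13841 at 3 of 483, and Rps3a1 and Rps3a2 at 4 of 792. Rplp0 and Gm8730 were the least alike of these pairs, with 12 mismatches in 954 bases, but still shared a run of 170 bases. Each aligned stretch spans 3 to 6 exons of the parent and a single exon of the pseudogene, so a read within 1 parent exon has a near-identical position in the pseudogene. How reads with several equally good positions were counted is not given in the sources used here.

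Of the 83 members, 5 rose and 7 fell in Npac KO cells. A gene was called where the Benjamini-Hochberg adjusted p of edgeR was under 0.05 and its level changed by more than 1.5 times. The 12 called members were 14.5% of the 83, and the same rule called 21.7% of the 18157 genes tested. By direction, 6.02% of the members rose against 11% of all genes, and 8.43% fell against 10.7% of all genes. The median log2 fold change of the members was -0.16 and that of all genes tested 0.0015. In 55 members the fold change was below 0, and in 28 it was above 0. Both KO libraries lay below both WT libraries in 40 members, where 32.5% of all genes did so, and above them in 16 members, where 33.2% of all genes did so. In the other 27 members the groups overlapped. An unadjusted p under 0.05 was found in 30 members, beside 37.5% of all genes.

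**Figure D1:**
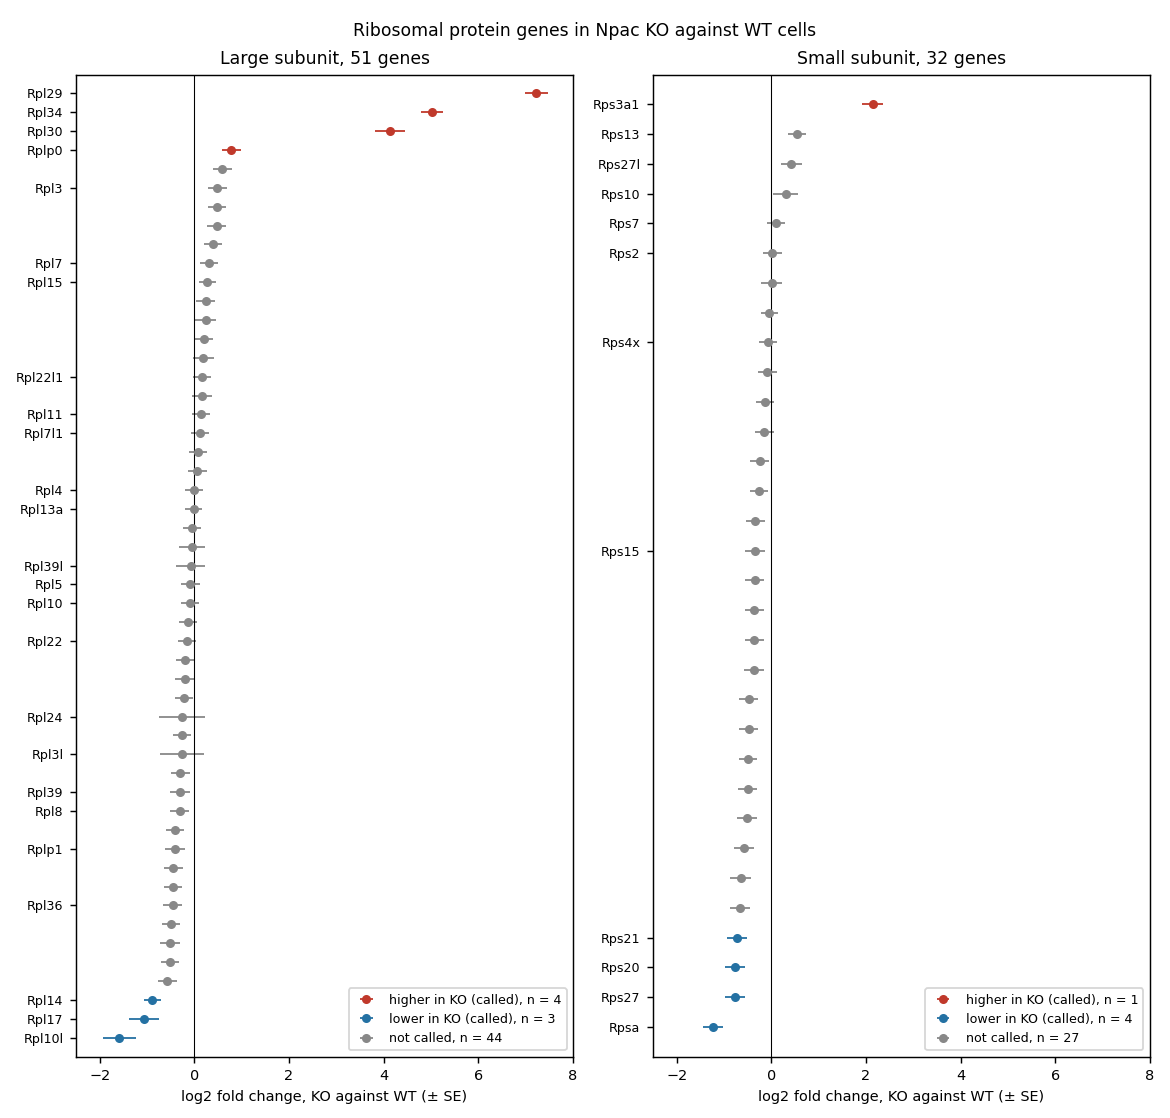
Log2 fold change of each of the 83 ribosomal protein genes between 2 Npac KO and 2 WT libraries (x axis, points with standard errors from edgeR), ordered within the large subunit (left) and the small subunit (right), with names on the genes that the naming rule selects. Rpl29, Rpl34, Rpl30 and Rps3a1 stand far to the right, between 2.14 and 7.23, and the other genes lie between -1.59 and 0.78.

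The members that rose were Rpl29, Rpl34, Rpl30 and Rplp0 of the large subunit and Rps3a1 of the small subunit. Rpl29, a large-subunit protein also described as a heparin-binding protein, had 45 and 48 reads in WT1 and WT2 and 6971 and 7011 reads in KO1 and KO2. Its log2 fold change was 7.23 (SE 0.24, adjusted p = 2e-05 by edgeR's quasi-likelihood test). Rpl34 had 264 and 299 reads in WT cells and 9752 and 8546 in KO cells (log2 fold change 5.03, SE 0.23, adjusted p = 6e-05). In both genes the WT libraries were close together and far below the KO libraries. Rpl30 had 359 and 382 reads in WT cells, 7909 in KO1 and 4936 in KO2 (log2 fold change 4.13, SE 0.31, adjusted p = 0.000514). Here the KO libraries differed more from each other than the WT libraries did, but the groups did not overlap. Rps3a1, which lies near the mRNA exit of the small subunit, had 4550 and 6674 reads in WT cells and 24727 and 24321 in KO cells (log2 fold change 2.14, SE 0.22, adjusted p = 0.00137). Rplp0 forms the base of the ribosomal stalk, to which Rplp1 and Rplp2 bind. It had 21021 and 28539 reads in WT cells and 42783 and 41969 in KO cells (log2 fold change 0.78, SE 0.20, adjusted p = 0.0323). The call of Rplp0 was kept in 1 of the 4 fits that left out a library, that without WT2.

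The matching pseudogenes of these members had their reads mostly in WT cells. Gm13841 had 1664 and 1688 reads in WT1 and WT2 and 822 and 840 in KO1 and KO2, and Gm8210, which also matches Rpl29, had 460, 520, 81 and 41. Another copy, Gm10709, went the other way, with 1 and 4 reads in WT cells and 214 and 251 in KO cells. So the Rpl29 copies did not all move in 1 direction. Rpl34-ps1 had 12260 and 14291 reads in WT cells and 802 and 700 in KO cells, the opposite order to Rpl34. Gm12191, the copy of Rpl30, had 7523 and 9298 reads in WT cells, 203 in KO1 and 1230 in KO2. Another copy, Rpl30-ps10, had 29, 44 and 58 reads in WT1, WT2 and KO1 and 612 in KO2, the library in which Rpl30 itself was lower than in KO1. Rps3a2 had 12862 and 16464 reads in WT cells and 112 and 128 in KO cells, and Rps3a3 had 8203, 12557, 92 and 129. Gm8730, the copy of Rplp0, had 17400 and 23141 reads in WT cells and 217 and 211 in KO cells. For Rpl34, Rpl30, Rps3a1 and Rplp0, the parent was thus high where its main copy was low.

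**Figure D2:**
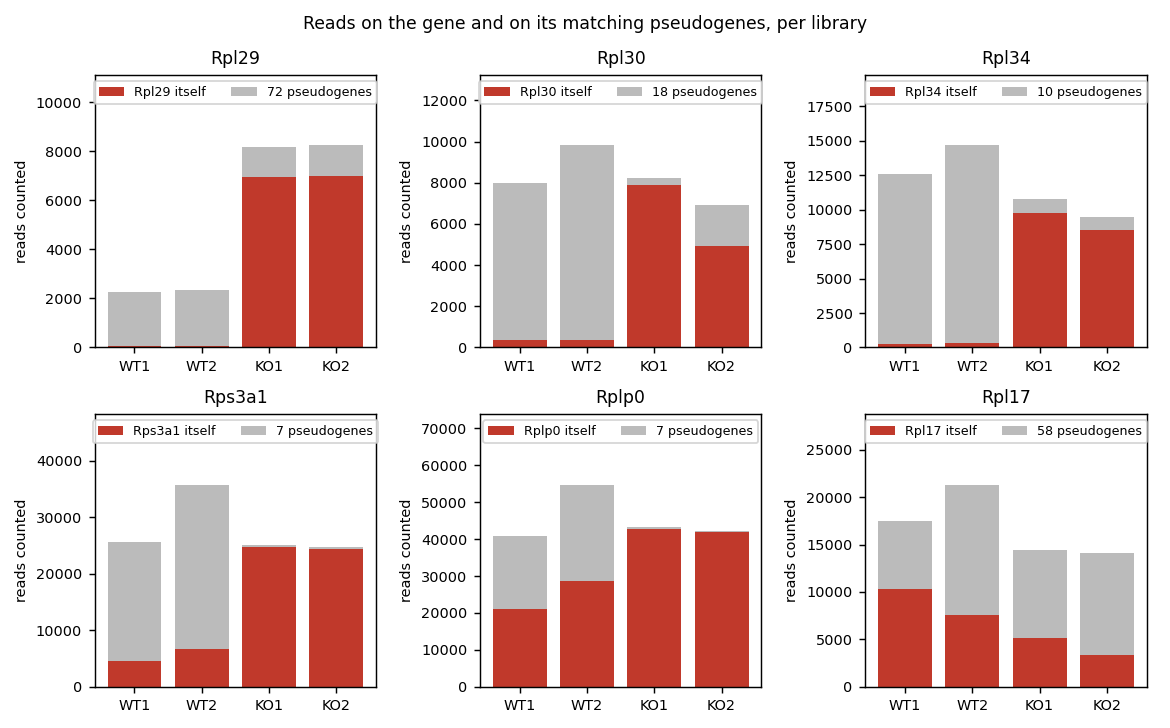
Reads counted on 6 ribosomal protein genes (red) and on all pseudogenes that match each of them (grey, stacked on top) in WT1, WT2, KO1 and KO2; each panel has its own linear axis from 0. For Rpl34, Rpl30, Rps3a1 and Rplp0 the red part grows in KO cells while the height of the whole bar changes little by comparison, for Rpl29 the whole bar grows, and for Rpl17 the red part shrinks.

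As a share of all reads on the gene and its copies, Rpl29 took 2.0% and 2.05% in WT1 and WT2 and 85.4% and 85.0% in KO1 and KO2. Rpl34 took 2.10% and 2.04% in WT cells and 90.5% and 90.3% in KO cells. Rpl30 took 4.50% and 3.89% in WT cells, 96.2% in KO1 and 71.5% in KO2. These 3 genes held only a small part of their family's reads in WT cells. Rps3a1 went from 17.7% and 18.7% to 98.9% and 98.7%, and Rplp0 from 51.4% and 52.1% to 99.1% and 99.2%. Of the 80 members with a copy, the parent's share was higher in both KO libraries than in both WT libraries for 20 and lower for 18. Some of these differences were small. Rpl28 went up from 94.23% and 94.11% to 94.54% and 95.02%, and Rpl27a went down from 93.22% and 92.68% to 92.63% and 92.49%. With 2 against 2 libraries, groups can also separate by order alone, and the part of this in the 2 counts was not tested. In both WT libraries the copies together had more reads than the parent for 6 members (Rpl24, Rpl29, Rpl30, Rpl34, Rps10 and Rps3a1), and in both KO libraries for 3 members (Rpl17, Rpl24 and Rps10).

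The reads of each member were then summed with those of its matching pseudogenes and the fit was repeated over 17909 genes, of which 21.5% were called. Of the members, 1 rose and 6 fell in that fit, which is 8.43% of them, and the median log2 fold change was -0.25. Rpl29 still rose after the sum. Its family was at 147 and 135 CPM in WT1 and WT2 and at 525 and 476 CPM in KO1 and KO2 (log2 fold change 1.83, SE 0.18, adjusted p = 0.00163). The sums for Rpl34 (-0.43, adjusted p = 0.159), Rpl30 (-0.23, adjusted p = 0.456), Rps3a1 (-0.30, adjusted p = 0.321) and Rplp0 (-0.16, adjusted p = 0.616) were below 0 on the log2 scale, and none was called. Whether reads of 1 transcript were placed on different copies in the WT and KO libraries, or the copies were transcribed differently, cannot be told apart from a count table.

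The direction also turned on summing for 7 members that were not called either way. They were Rps13 (from 0.53 to -0.20 on the log2 scale), Rpl3 (0.48 to -0.12), Rps10 (0.30 to -0.26), Rpl15 (0.27 to -0.02), Rpl11 (0.13 to -0.11), Rps7 (0.10 to -0.25) and Rps2 (0.015 to -0.15). Rpl3-ps1, which differs from Rpl3 at 2 of 1210 aligned bases, had 15551 and 16996 reads in WT cells and 2319 and 2420 in KO cells. Rps13-ps1 had 4388 and 5646 reads in WT cells and 153 and 117 in KO cells, and Gm10036, a copy of Rpl11, had 2223, 2915, 123 and 85. These copies, too, were lower in both KO libraries. For Rps10, which had only 209, 329, 304 and 357 reads in WT1, WT2, KO1 and KO2, Rps10-ps2 alone had 4767, 6304, 4536 and 4435. For 68 of the 83 members the sum moved the log2 fold change by 0.1 or less, and for 9 it moved it by more than 0.5.

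**Figure D3:**
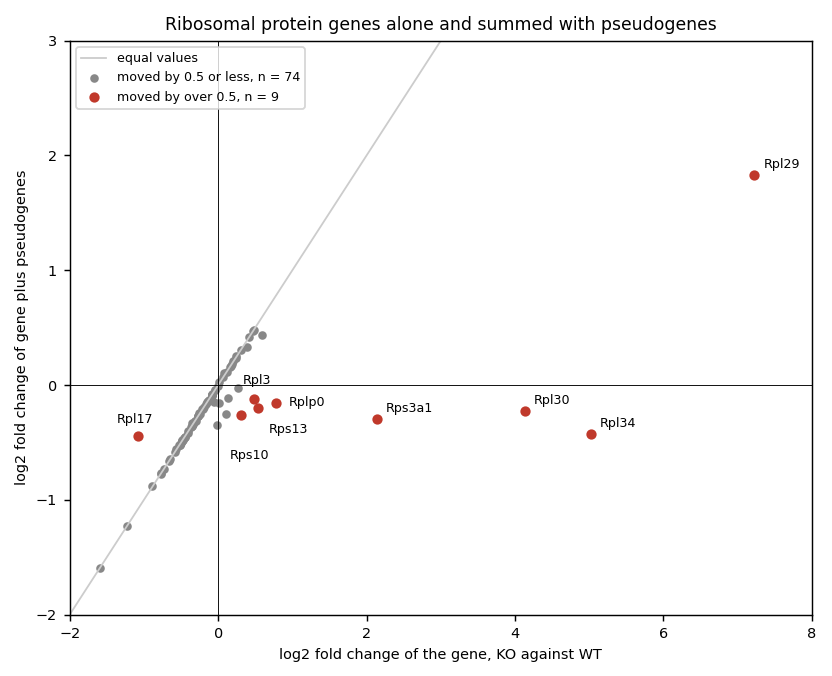
Log2 fold change between KO and WT cells of each ribosomal protein gene by itself (x axis) and of the same gene summed with its matching pseudogenes (y axis), for 83 genes; the grey line marks equal values. The 9 genes that moved by more than 0.5 are named, and Rpl34, Rpl30, Rps3a1, Rplp0, Rpl3, Rps13 and Rps10 fall from above 0 to below 0.

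The members that fell were Rpl10l, Rpl17 and Rpl14 of the large subunit and Rpsa, Rps27, Rps20 and Rps21 of the small subunit. Rpsa, the small-subunit protein also known as the laminin receptor precursor, was measured at 4317 and 5288 CPM in WT1 and WT2 and at 2199 and 1901 CPM in KO1 and KO2. Its log2 fold change was -1.23 (SE 0.22, adjusted p = 0.0091 by edgeR's quasi-likelihood test), and it was called in all 4 fits that left out a library. It was also the most highly counted of the members that fell. Rpl14 went from 1533 and 1685 CPM in WT cells to 892 and 846 CPM in KO cells (-0.89, SE 0.19, adjusted p = 0.0161), a call that was lost without KO1 (adjusted p = 0.105) and without KO2 (adjusted p = 0.127). Both Rpl14 and Rpsa lie on chromosome 9, where all genes had a median log2 difference of -0.20 in each KO library. With the chromosome median taken out of each KO library, the log2 fold change of Rpsa was -1.03 (adjusted p = 0.0168) and that of Rpl14 -0.69 (adjusted p = 0.0389).

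The other small-subunit genes that fell did so by less. Rps27, a zinc-finger protein of the small subunit, was at 812 and 906 CPM in WT cells and at 578 and 427 CPM in KO cells (-0.77, SE 0.21, adjusted p = 0.0394). Rps20 was at 1318 and 1625 CPM in WT cells and at 956 and 773 CPM in KO cells (-0.77, SE 0.21, adjusted p = 0.0400). Rps21 was at 687 and 854 CPM in WT cells and at 514 and 413 CPM in KO cells (-0.73, SE 0.21, adjusted p = 0.0441). In each of these 3 genes KO2 was the lowest library, and the groups did not overlap. They sat close to the threshold. Rps27 and Rps20 were not called without KO1 or without KO2, and Rps21 was called in only 1 of the 4 fits that left out a library, that without WT1. The lone library is then assumed to vary like the other group. Rps27 (-0.66, adjusted p = 0.0624) and Rps21 (-0.69, adjusted p = 0.0549) were also not called once the chromosome median was removed, with fold changes close to those before.

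Rpl10l is a retrogene copy of Rpl10 that is known for its use in male germ cells. It was at 53.2 and 95.1 CPM in WT1 and WT2 and at 18.0 and 31.3 CPM in KO1 and KO2 (log2 fold change -1.59, SE 0.35, adjusted p = 0.0185), while Rpl10 itself was at 1011, 1131, 1067 and 949 CPM (-0.09, adjusted p = 0.774). Rpl10l was thus the lowest in KO1, and the replicates of each genotype differed widely. Its call was lost without KO1. Rpl17, which lines the peptide exit tunnel, was at 672 and 433 CPM in WT cells and at 334 and 191 CPM in KO cells (-1.07, SE 0.32, adjusted p = 0.0471), a call that was lost without KO2 (-0.73, adjusted p = 0.259), with the chromosome median removed (-0.97, adjusted p = 0.0683) and with limma on FPKM (adjusted p = 0.0719 and 0.0687 at the 2 pseudocounts). Summed with its 58 matching pseudogenes it gave -0.44 (adjusted p = 0.130). Rpl17-ps10 had 3408 and 6907 reads in WT1 and WT2 and 4671 and 6682 in KO1 and KO2, and Rpl17-ps3 had 3471, 6348, 3974 and 3647. The 2 main copies of Rpl17 therefore overlapped between the genotypes, in contrast to those of the genes that rose. The other 6 genes that fell also fell after the sum.

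Another 7 members had adjusted p-values between 0.05 and 0.1. Rps19, a protein mutated in Diamond-Blackfan anaemia, had 16047 and 23532 reads in WT cells and 12375 and 12454 in KO cells (-0.66, adjusted p = 0.0558). Rps28 (-0.65, adjusted p = 0.0761), Rps16 (-0.58, adjusted p = 0.0836), Rpl12 (-0.57, adjusted p = 0.0777) and Rpl35a (-0.53, adjusted p = 0.0862) also had fold changes below 0. The remaining members of this group, Rpl7a (0.59, adjusted p = 0.0767) and Rps13 (0.53, adjusted p = 0.0824), had fold changes above 0. The pseudogenes that match Rpl7a had 1923 and 2543 reads in WT cells and 2142 and 2418 in KO cells, and its sum gave 0.44 (adjusted p = 0.144).

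Taken by subunit, 4 large-subunit genes rose and 3 fell, with a median log2 fold change of -0.08, and 1 small-subunit gene rose and 4 fell, with a median of -0.34. In either direction, 13.7% of the large-subunit genes and 15.6% of the small-subunit genes were called. Both shares were below the 21.7% of all genes tested, so the called genes alone do not set either subunit apart. Of the 32 small-subunit genes, 25 had a fold change below 0, and of the 51 large-subunit genes, 30 did. After the sum with pseudogenes these numbers were 30 of 32 and 36 of 51, and the medians -0.34 and -0.16. The small-subunit genes took 3.45% and 4.37% of all counts in WT1 and WT2 and 3.19% and 2.88% in KO1 and KO2. The large-subunit genes took 4.15% and 5.04% in WT cells and 4.67% and 4.26% in KO cells. The small-subunit share was thus lower in both KO libraries than in either WT library, and the large-subunit share overlapped. The log2 ratio of large to small subunit counts was 0.27 and 0.21 in WT cells and 0.55 and 0.57 in KO cells, a difference of 0.32. An exact two-sided permutation test gave p = 0.33 for this ratio and for the small-subunit share, which is the smallest p that 2 against 2 libraries allow. The difference in the ratio was 0.29 with pseudogenes included. In alternatives chosen after seeing the data, it was 0.26 without the members on chromosomes 8 and 11 and 0.23 without Rpsa.

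**Figure D4:**
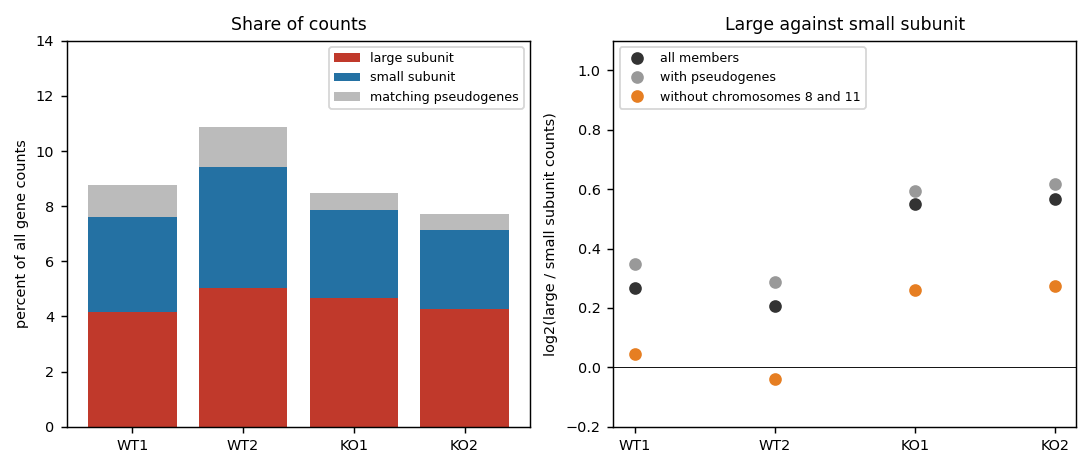
Left, percent of all gene counts in each library on large-subunit genes (red), small-subunit genes (blue) and their matching pseudogenes (grey), stacked from 0. Right, log2 ratio of large to small subunit counts in each library for all members, with pseudogenes included and without members on chromosomes 8 and 11; in all 3 versions both KO libraries lie above both WT libraries.

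All members together took 7.60% and 9.42% of the counts in WT1 and WT2 and 7.86% and 7.14% in KO1 and KO2. The 95% Wilson intervals of these shares were at most 0.0281 percentage points wide, which covers counting error only. The mean difference was -1.01 percentage points (exact two-sided permutation p = 0.667), and the groups overlapped, since WT1 lay below KO1. The difference rested on single libraries, at -1.91 points without WT1 and -0.096 points without WT2. Pseudogenes of the members took 1.19% and 1.46% in WT cells and 0.622% and 0.591% in KO cells.

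The members moved together between libraries of 1 genotype. WT2 was above WT1 in 73 of the 83 members, with a median log2 difference of 0.17 where that of all genes was 0.011. KO2 was above KO1 in only 5 members, with a median of -0.22 where that of all genes was 0.0041. Against the WT mean, 47 members were lower in KO1 (median -0.06) and 59 in KO2 (median -0.25). The median difference between the WT libraries was therefore of the same size as the median difference between the genotypes. The median log2 fold change of the members was -0.28 without WT1, -0.069 without WT2, -0.27 without KO1 and -0.079 without KO2.

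Position on the chromosomes moved with the fold change as well. All genes of chromosome 8 had a median log2 difference of 0.51 in KO1 and 0.52 in KO2, and those of chromosome 11 had 0.51 and 0.48. The 9 members on these chromosomes, 8 of them from the large subunit, all had fold changes above 0, with a median of 0.23, but all 9 lay below 0, with a median of -0.27, once the chromosome median was taken out of each KO library. None was called either way. The fold changes ran from 0.007 for Rps27a to 0.48 for Rpl19, both on chromosome 11, and from -0.49 for Rps27a to -0.017 for Rpl19 after the removal. Rpl19 had 14699 and 18532 reads in WT cells and 23358 and 22804 in KO cells (adjusted p = 0.112). The 74 members on other chromosomes had a median of -0.25, and among them the large-subunit genes had -0.16 and the small-subunit genes -0.35. The part of these chromosome-wide differences in the values of the members was not tested.

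**Figure D5:**
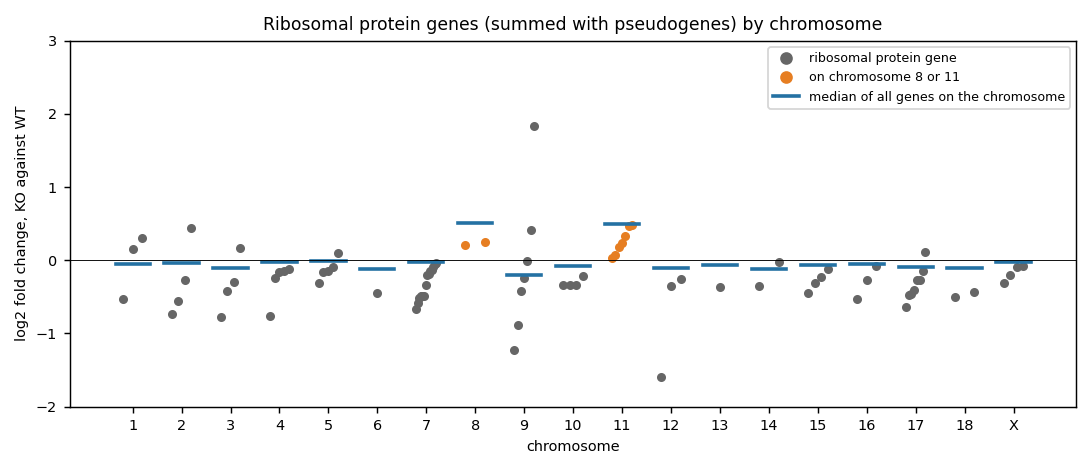
Log2 fold change between KO and WT cells of each ribosomal protein gene summed with its pseudogenes (points), by the chromosome of the gene, with the median of all genes on that chromosome averaged over KO1 and KO2 (blue bars). The 9 genes on chromosomes 8 and 11 (orange) all lie above 0, with a median of 0.24 (by the genes alone, all 9 lie below 0 once the chromosome median is removed), while the 74 genes on other chromosomes have a median of -0.27.

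Levels between genes were compared per length, as FPKM. The gene length used was 383 bases for Rpl36 and 6270 bases for Rps15a, and the order of the genes depends on it. The median over the 83 members was 450 FPKM, and 73 members had a mean over 100 FPKM. The highest were Rplp1, a stalk protein, with a mean of 3615 FPKM, followed by Rpl36 (2006 FPKM), Rpl8 (1687 FPKM), Rps15 (1653 FPKM) and Rpl4 (1431 FPKM). None of these 5 was called, with log2 fold changes between -0.46 for Rpl36 and -0.009 for Rpl4. The lowest were Rpl24 (1.43 FPKM), Rpl3l (2.01 FPKM), Rps10 (7.79 FPKM), Rpl39l (29.1 FPKM) and Rpl13a (42.4 FPKM), and none of them was called. Rpl24 had 25 and 28 reads in WT cells and 23 and 21 in KO cells, and its copies had 174, 237, 162 and 179 reads, so Rpl24 held only 10.5% to 12.6% of its family's reads in every library. The whole family was low too, at 13.0 and 15.2 CPM in WT cells and 11.9 and 11.5 CPM in KO cells. These sums hold only reads counted on Rpl24 and its matched copies. Whether other reads of Rpl24 were left uncounted or placed elsewhere was not tested.

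Several members are paralogs that replace a standard protein in some tissues. Rpl3l, the muscle paralog of Rpl3, had 65 and 53 reads in WT cells and 60 and 38 in KO cells (-0.27, adjusted p = 0.714). Rpl39l, a paralog of Rpl39 used in male germ cells, had 268 and 570 reads in WT cells and 362 and 419 in KO cells (-0.08, adjusted p = 0.876). Both were low beside their parents in all libraries, and their groups did not separate. Rpl22l1 (0.17, adjusted p = 0.562) and Rpl22 (-0.16, adjusted p = 0.563) had fold changes on either side of 0. Rps27l, a paralog of Rps27 that is known to respond to p53, had 2086 and 3491 reads in WT cells and 3712 and 3652 in KO cells (0.42, adjusted p = 0.213), while Rps27 fell. With each library left out in turn, the log2 fold change of Rps27l ranged from 0.14 to 0.72, the highest value being that without WT2. Rpl7l1 (0.12, adjusted p = 0.684) and Rpl7 (0.31, adjusted p = 0.270) were both uncalled. The same held for Rpl5 (-0.09, adjusted p = 0.786) and Rpl11 (0.13, adjusted p = 0.639), which form a particle with 5S rRNA that can bind Mdm2.

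Some ribosomal proteins carry names that the rule does not cover. Fau, which encodes Rps30, gave -0.46 (adjusted p = 0.120), Rack1, on the head of the small subunit, gave 0.19 (adjusted p = 0.523), and Rpl36al gave -0.20 (adjusted p = 0.814). Of 17 other genes known for TOP mRNAs, 4 rose (Npm1, Eif4b, Cct4 and Hnrnpa1) and 2 fell (Tpt1 and Eif3h), with a median of 0.27. Npm1, which encodes nucleophosmin, gave 1.18 (adjusted p = 0.0109), and Tpt1 gave -0.93 (adjusted p = 0.0154). The elongation factors Eef2 (0.06, adjusted p = 0.859) and Eef1a1 (-0.24, adjusted p = 0.481) were uncalled. Of 19 chaperones, importers and assembly factors for ribosomal proteins, 18 were tested. The importins Ipo7 (0.91, adjusted p = 0.0124) and Ipo5 (0.69, adjusted p = 0.0454), the 5S particle assembly factor Rpf2 (0.73, adjusted p = 0.0331) and the TOP mRNA-binding protein Larp1 (0.99, adjusted p = 0.0139) rose. Npm1, Cct4 and Larp1 lie on chromosome 11. Zfp622, a late assembly factor of the large subunit, fell (-0.70, adjusted p = 0.0271). The median over these 18 was 0.008. Beside 21.7% of all genes, 35.3% of the TOP mRNA genes and 27.8% of the assembly genes tested were called.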

How the data were processed

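RNA-seq libraries of 2 WT and 2 Npac KO samples were analysed. Per the labels, the authors used HISAT2 2.0.5 and featureCounts 1.5.0-p3, whereas the study's methods give another HISAT version. They deposited raw read counts per gene and FPKM, which equal these counts over gene length and over a library size scaled by size factors. Whether strand was used, and how reads with several positions were counted, is not given in the sources used here. The labels name mm10, but of 52073 genes shared with GENCODE M21 (GRCm38) only 1472 had the same start and end, so the deposited coordinates were not used.

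Counts were fitted in R 4.3.3 with edgeR 4.0.16 (TMM scaling, filterByExpr, trended dispersion, quasi-likelihood test) over 18157 genes. The Benjamini-Hochberg adjusted p had to be under 0.05, with a change of more than 1.5 times, for a gene to be called, as in the study's methods. Values with standard errors are log2 fold changes of KO against WT. The fit was also run on simulated data without chromosome-wide differences or reads shared with pseudogenes, so that run tests neither. Pseudogenes were matched to the members' transcripts by sequence (blastn 2.17.0+, 1131 pseudogenes, identity of at least 90% across 60% of the pseudogene) or by name (70), and their reads were added to the member for the summed fit.

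The members, lists and tests were chosen with earlier results of these data known. Named genes were all called members, the 5 highest and 5 lowest by mean FPKM, members whose call or direction changed on summing, and a list of paralogs, 5S particle proteins, Rpl29, Rpl34 and Rps3a1. The 7 members with an adjusted p between 0.05 and 0.1, Rps19 and Rpl19 among those described, and the members on chromosomes 8 and 11, were chosen after their values were seen. Alternatives were other scalings and filters, DESeq2 1.42.0, limma 3.58.1 on FPKM, protein-coding genes only, a replicate block, leaving out each library, removing chromosome medians and no fold threshold. Replicates varied beyond counting error: per member, the chi-square was 73.5 between WT1 and WT2 and 35.4 between KO1 and KO2. Some genes and sequences that were analysed are not reported here.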

Additional observations from a re-analysis of the deposited data

How the results depend on the processing

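The number of members that rose was 5, and it lay between 4 and 7 when a library was left out and between 4 and 6 in the other fits, but it was 1 when reads on matching pseudogenes were added. The number that fell was 7, and it ranged from 2 to 16 when a library was left out (16 without WT1, 2 without KO1 or KO2). It was 2 and 3 with limma on FPKM at pseudocounts of 1 and 0.1, 4 with chromosome medians removed, and 9 with DESeq2 and without a filter on low counts. The cause was not tested. Numbers shared by WT and KO samples mark no common batch in the labels, and with 2 pairs their deviations correlated at 0.67 over the members and 0.33 over all genes. This correlation leaves out the shift that the members share. That shift ran in opposite directions, since WT2 was above WT1 in 73 members and KO2 above KO1 in 5. With the replicate number as a block, 5 members rose and 9 fell. The median of all members stayed below 0 in every fit, but moved with single libraries. It was -0.28 without WT1, -0.069 without WT2, -0.27 without KO1 and -0.079 without KO2. When a library was left out, that of the large subunit ranged from -0.20 to -0.00085 and that of the small subunit from -0.51 to -0.20. The difference in the log2 ratio of large to small subunit counts was 0.29 with pseudogenes, 0.26 without chromosomes 8 and 11 and 0.23 without Rpsa.

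Over the 37 named members, 495 of 555 values kept direction and call, 34 values of 10 genes lost the call, 1 gained it (Rps27l without WT2), and 29 values of 19 genes changed sign, of which 4 (Rpl30, Rpl34, Rps3a1 and Rplp0 with pseudogenes added) are among the lost calls. On adding pseudogene reads these were Rpl11 -0.11, Rpl15 -0.022, Rpl3 -0.12, Rpl30 -0.23, Rpl34 -0.43, Rplp0 -0.16, Rps10 -0.26, Rps13 -0.20, Rps2 -0.15, Rps3a1 -0.30 and Rps7 -0.25. With each library left out in turn, the log2 fold change ranged from -0.16 to 0.099 for Rpl13a, -0.013 to 0.34 for Rpl22l1, -0.49 to 0.44 for Rpl39l, -0.74 to 0.084 for Rpl3l, -0.14 to 0.095 for Rpl4, -0.24 to 0.049 for Rpl5, -0.0015 to 0.21 for Rpl7l1, -0.11 to 0.11 for Rps2, -0.18 to 0.00090 for Rps4x and -0.063 to 0.24 for Rps7. Upper-quartile scaling gave 0.018 for Rpl13a and 0.023 for Rpl4, no filter gave 0.0027 for Rpl4, removing chromosome medians gave 0.012 for Rpl13a and 0.19 for Rpl4, and protein-coding genes only gave -0.018 for Rps2. None of the genes in the last 2 sentences was called by the reported fit.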
